A study of Mus musculus with 23 samples.

Results

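The 10 genes described here encode the cargo of neutrophil granules. They fall into an early set of 4 genes (Mpo, Elane, Prtn3 and Ctsg) and a late set of 6 genes (Ltf, Lcn2, Camp, Ngp, Mmp8 and Mmp9), and were chosen by symbol from the 32285 genes of the count matrices. Single-cell RNA libraries came from C57BL/6 mice (the methods give C57BL/6N for the mutant lines) of 3 genotypes: WT, STAT5B-Y665F and STAT5B-Y665H, written Y665F and Y665H from here on. Both mutants carry a missense change of the same tyrosine in the SH2 domain of STAT5B, a transcription factor that acts downstream of many cytokine receptors. Y665F was introduced by CRISPR/Cas9 with a donor oligonucleotide and Y665H by base editing, and the mice were 2 months old. Each genotype had 2 bone marrow libraries and 1 spleen library, the spleen library being made from CD45+ cells of 3 mice combined. Because the mutations are point changes, the Stat5b count does not check a genotype label. How bone marrow cells were prepared for these libraries and the zygosity of those mice are not given in the sources used here, and spleen and bone marrow levels are not compared.

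Neutrophil granules are filled in the order in which their proteins are made. Myeloblasts and promyelocytes make the serine proteases and myeloperoxidase of azurophil granules. Myelocytes and metamyelocytes then make the contents of specific granules, band cells make those of gelatinase granules, and mature neutrophils have largely stopped transcribing both. The transcription factors PU.1, C/EBP-alpha and MYB drive the early genes, and C/EBP-epsilon is required for specific granule genes.

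The barcodes kept numbered 4093 and 10296 in the WT bone marrow libraries, 9561 and 10957 in Y665H, and 15656 and 15910 in Y665F, with median depths of 1551 to 2744 UMIs per barcode (unique molecular identifiers, each a counted transcript) and library totals of 15560571 to 45286707 UMIs. The deposited barcodes of Y665F replicate 2 started at 1179 UMIs and those of the other 5 marrow libraries at 500. The spleen libraries held 6489 barcodes (WT), 7504 (Y665H) and 4826 (Y665F), with medians of 5004 to 6613 UMIs. Replicate 1 of each bone marrow genotype came from a female and replicate 2 from a male mouse by Xist, which was at 233 to 794 CPM (counts of a gene per 1000000 UMIs of the library or gate) in replicate 1 and at most 0.492 CPM in replicate 2, although the methods describe male mice. The largest overlap of cell barcodes between libraries was 476, in the Y665F bone marrow pair. Neutrophils were defined without any of the 10 genes: a barcode entered the neutrophil gate when S100a8 and S100a9 made up 2% or more of its other UMIs. It was then immature or mature by whichever of 2 marker lists had more UMIs. Fcnb, Chil3, Cebpe, Cd177 and cell cycle genes stood on the immature list. Cxcr2, Il1b, Csf3r, Retnlg, Ccl6, Msrb1, Mxd1 and Clec4d stood on the mature list. Outside that gate, barcodes with 2 or more UMIs of Ms4a3, a gene of granulocyte-monocyte progenitors, formed the progenitor gate, and "other barcodes" are those in neither gate.

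Promoter sequences from RefSeq (GRCm38.p6, 250 bases before to 50 after the start) were matched for 9 of the 10 genes, Mmp9 being the one not matched, and 4 short motifs were searched on both strands. The early and late sets are shown because they differed in which motif they held. The PU.1 core GAGGAA was in all 4 early promoters and in 3 of 5 late ones, against 28.3% of all 32851 promoters. Stretches of the early promoters are printed with that core in capitals.
Mpo (chr11:87793550-87793575, plus strand, 224 bases before the start): tggagagagaGAGGAAgttgcctttg
Elane (chr10:79886217-79886242, plus strand, 85 bases before the start): gtgtcccaggGAGGAAgtagggctgt
Prtn3 (chr10:79879562-79879587, plus strand, 95 bases before the start): aaactggaagGAGGAAgtgggaccca
Ctsg (chr14:56102775-56102800, minus strand, 216 bases before the start): cccagaaggaGAGGAAgaaaaggaag

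The C/EBP-type motif TTNNGNAA was in none of the 4 early promoters and in 4 of 5 late ones (all but Camp), against 40.7% of all promoters. It is in capitals in these stretches of late promoters, on the printed strand for Ltf and Ngp and on the opposite strand for Lcn2 and Mmp8, where the printed letters are its reverse complement.
Ltf (chr9:111019207-111019232, plus strand, 75 bases before the start): ggcaggcctaTTGGGCAAtagggtgg
Lcn2 (chr2:32387940-32387965, minus strand, 216 bases before the start): gcccttcctgTTGCTCAAccttgcac
Ngp (chr9:110419787-110419812, plus strand, 11 bases before the start): ccggcagttcTTGGGCAAggcagtct
Mmp8 (chr9:7558400-7558425, plus strand, 19 bases before the start): taggcagaagTTGCTCAAgatgtagc

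The STAT motif TTCNNNGAA was in the Ctsg promoter only among the 9, against 8.3% of all promoters.
Ctsg (chr14:56102748-56102773, minus strand, 189 bases before the start): agtcacctgtTTCTCTGAAttactgc
The RUNX motif TGTGGT was in the Ctsg and Ltf promoters, against 16.8% of all promoters. These matches describe letters in a window, and binding to them was not tested.

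Across whole bone marrow libraries, the late granule genes were higher in Y665F than in WT and the early genes were not called. The comparison asks how granule gene RNA differed in the sum of all barcodes of a library, where more cells of a type and more RNA per cell cannot be told apart. Neutrophil-gated barcodes made up at most 0.964% of a library, and how the cells were prepared is not given. The sums are therefore not read as levels of unfractionated marrow. Camp, the cathelicidin antimicrobial peptide precursor, was at 5.4 and 29.3 CPM (WT), 37.3 and 25.2 CPM (Y665H) and 588 and 196 CPM (Y665F). Both Y665F libraries lay above the other 4. Such a separation, here and below, is a description, since the share of all genes that separate in this way is not given. In edgeR's quasi-likelihood test, with Benjamini-Hochberg adjustment over the 13687 genes tested, Camp was higher in Y665F by 4.24 on the log2 scale (SE 0.66, adjusted p = 0.000472).

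Ltf encodes lactoferrin, an iron-binding protein of specific granules. It was at 0.514 and 2.18 CPM (WT), 3.24 and 1.22 CPM (Y665H) and 46.7 and 14.2 CPM (Y665F), a difference of 4.20 from WT (SE 0.62, adjusted p = 0.000356). Lcn2 encodes lipocalin 2, which binds bacterial siderophores. Its levels were 0.900 and 2.43 CPM (WT), 4.72 and 4.06 CPM (Y665H) and 80.7 and 19.1 CPM (Y665F), and its log2 difference from WT was 4.65 (SE 0.59, adjusted p = 0.000169). For both genes the Y665F libraries did not overlap the rest, and replicate 1 was the higher of the pair. Leaving out Y665F replicate 1 gave the lowest and leaving out WT replicate 2 the highest values for Camp (3.14 and 6.20), Ltf (3.01 and 5.90) and Lcn2 (3.17 and 5.81), and all stayed called.

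Ngp, the cystatin-related neutrophilic granule protein, was at 9.83 and 44.2 CPM (WT), 84.1 and 58.2 CPM (Y665H) and 405 and 57.9 CPM (Y665F). The second Y665F library lay just below both Y665H libraries. Its log2 difference between Y665F and WT was 2.86 (SE 0.72, adjusted p = 0.0082), and fell to 0.75 without Y665F replicate 1 and to 2.05 without WT replicate 1 (adjusted p = 0.055), so that the call rests on those libraries. DESeq2 gave it 2.82 with an adjusted p of 0.0916. Mmp8, the neutrophil collagenase, was at 0.771 and 1.48 CPM (WT), 1.35 and 0.767 CPM (Y665H) and 7.22 and 2.69 CPM (Y665F). Its log2 difference of 1.91 (SE 0.49, adjusted p = 0.00895) became 0.93 without Y665F replicate 1 (adjusted p = 0.155) and 1.39 without WT replicate 1 (adjusted p = 0.0705). Mmp9, gelatinase B, had 0 and 4 UMIs in WT, 4 and 2 in Y665H, and 298 and 76 in Y665F, and was called higher (adjusted p = 0.000382). It passed the count filter through the Y665F libraries alone, so that its calls against WT and Y665H are not read as support. The 6 late genes were thus all called at an adjusted p under 0.05 and a change of over 2-fold, against 8.09% of genes tested called higher and 8.44% called lower. Scaled to library totals alone, the median gene was higher in Y665F by 0.19 on the log2 scale and 1501 genes were called higher and 792 lower, in place of 1107 and 1155 with TMM scaling. The 10 genes kept their sign under each scaling.

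The early genes followed another order. Mpo, myeloperoxidase, was at 433 and 268 CPM (WT), 323 and 251 CPM (Y665H) and 515 and 626 CPM (Y665F), a log2 difference from WT of 0.57 (SE 0.26, adjusted p = 0.104). Ctsg, cathepsin G, was at 126 and 103 CPM (WT), 110 and 92.9 CPM (Y665H) and 206 and 216 CPM (Y665F). The Ctsg difference of 0.73 (SE 0.22, adjusted p = 0.0224) passed on p but was under 2-fold. Elane, neutrophil elastase, ranged from 539 to 1030 CPM with overlapping genotypes, and Prtn3, proteinase 3, from 819 to 1252 CPM, also overlapping. Their differences were 0.08 each (adjusted p = 0.867 and 0.856).

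Between Y665H and WT none of the 10 genes passed this test, with adjusted p-values of 0.852 or more. No gene at all was called between Y665H and WT by edgeR (0.0% of 13687; 735 genes had an unadjusted p under 0.05) or by DESeq2 (710 genes). Against Y665H, Y665F was higher for 5 late genes: Ltf (log2 difference 3.34), Lcn2 (3.11), Camp (3.25), Mmp8 (1.80) and Mmp9 (4.95), with adjusted p-values of 0.000167 to 0.00666, while Ngp was not called (1.31, adjusted p = 0.124). With the replicate number, which coincides with sex, as a block, Ngp was called in this comparison. The share of all genes called in that fit is given in the closing section. The Mmp8 call was lost without Y665F replicate 1 (0.85, adjusted p = 0.163) and without Y665H replicate 2 (1.5, adjusted p = 0.075). In that comparison 13.7% of genes were called higher and 12.1% lower (1871 and 1653 genes, or 3714 and 707 with library totals), and both comparisons share the Y665F libraries.

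**Figure D1:**
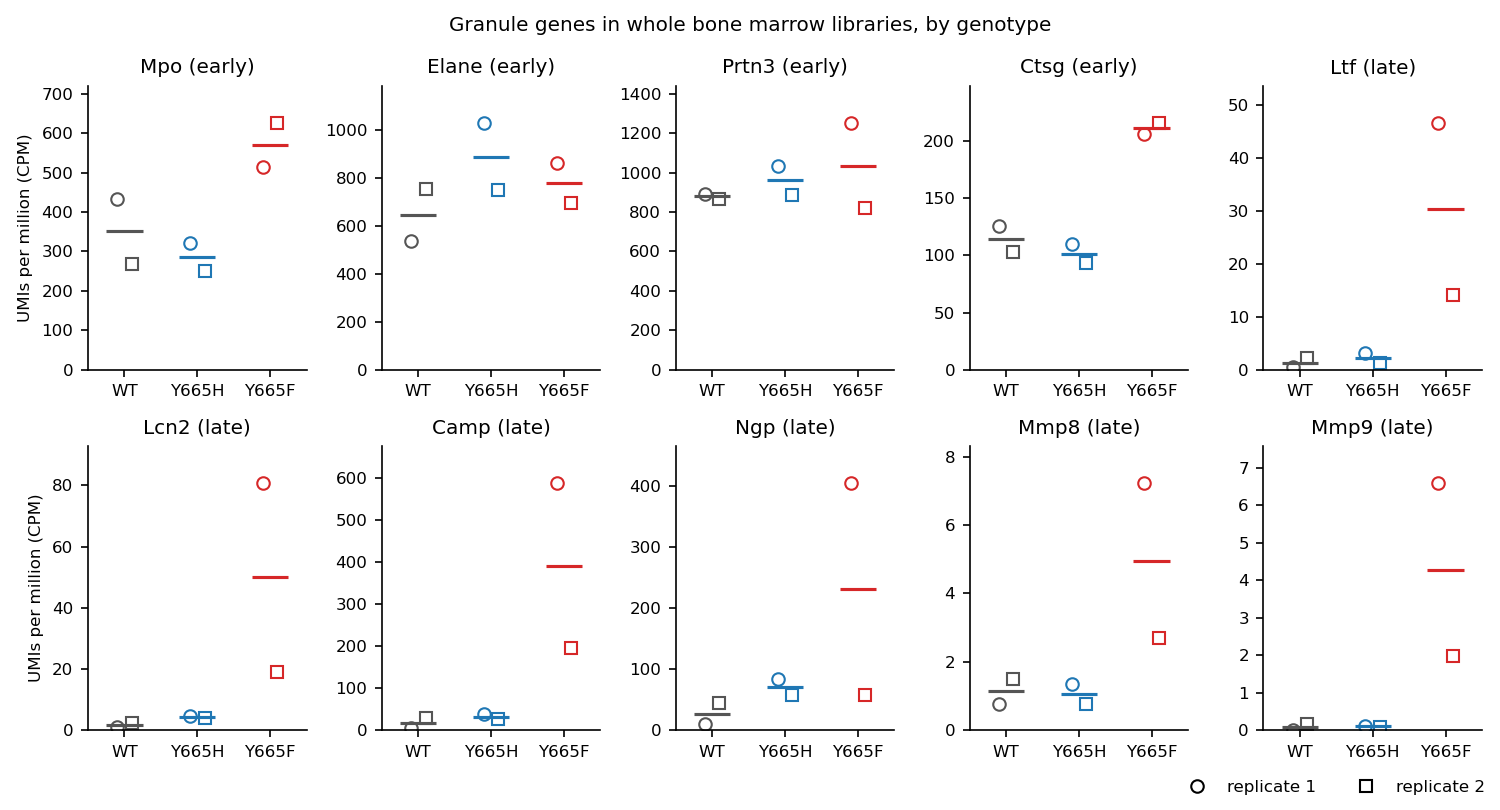
Levels of the 10 granule genes in whole bone marrow libraries, in CPM, by genotype. Circles are replicate 1, squares replicate 2 and bars the mean of 2 libraries. Both Y665F libraries stand above the other 4 for Ltf, Lcn2, Camp, Mmp8 and Mmp9 and for the early genes Mpo and Ctsg, whereas genotypes overlap for Elane, Prtn3 and Ngp. The share of all genes that separate in this way is not given.

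The early to late ratio showed the same contrast in each library. The log2 ratio of summed early to summed late UMIs in whole libraries was 6.84 and 4.65 in WT, 4.25 and 4.47 in Y665H, and 1.32 and 3.01 in Y665F. Summed early levels stayed within 1983 to 2835 CPM in all 6 libraries, whereas summed late levels were 17.4 and 79.7 CPM (WT), 131 and 89.5 CPM (Y665H) and 1134 and 292 CPM (Y665F). The late sum accounts for the range, and Y665F had the lowest ratios.

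**Figure D2:**
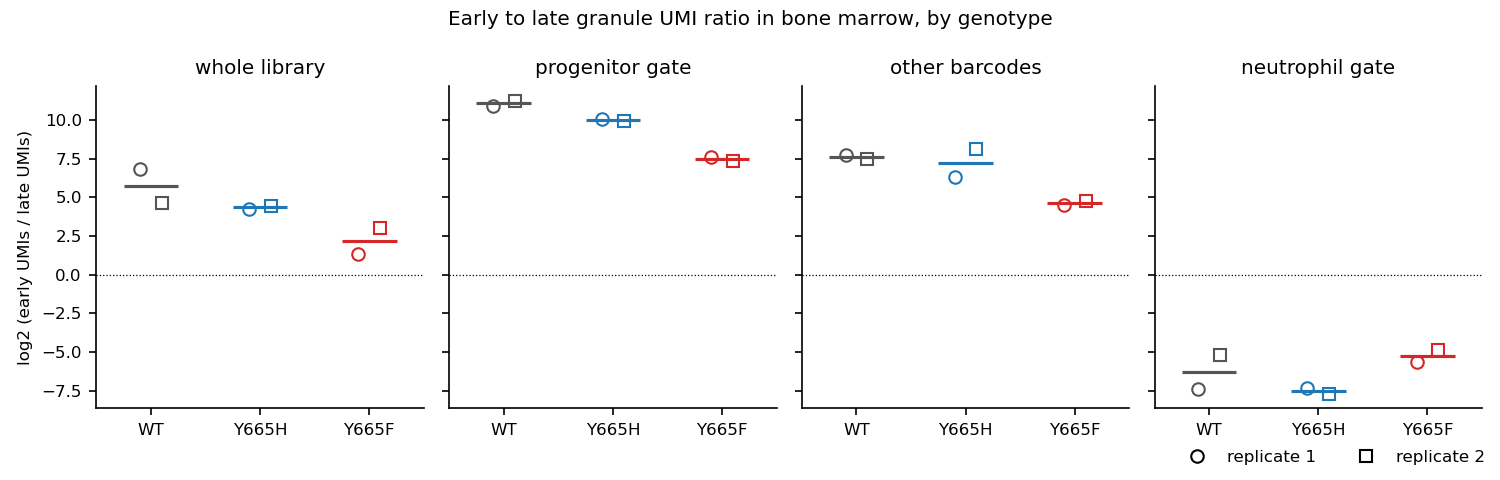
Log2 ratio of early to late granule UMIs in each bone marrow library, for whole libraries, the neutrophil gate, the progenitor gate and other barcodes. Points are libraries, with circles for replicate 1 and squares for replicate 2. Whole-library ratios run from 6.84 in WT replicate 1 down to 1.32 in Y665F replicate 1, and neutrophil-gate ratios are below 0 in all 6 libraries.

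Late UMIs sat in few barcodes. The neutrophil gate held 2 and 8 barcodes in WT, 15 and 9 in Y665H, and 151 and 89 in Y665F, or 0.0489% and 0.0777%, 0.157% and 0.0821%, and 0.964% and 0.559% of barcodes. These few barcodes carried 61.3% and 89.8% of the late UMIs of the WT libraries, 86.2% and 93.3% in Y665H, and 92.6% and 75.1% in Y665F, but at most 0.755% of any library's early UMIs. The progenitor gate, with 1.34% and 1.66% of barcodes in WT, 2.83% and 1.83% in Y665H, and 3.58% and 2.87% in Y665F, carried 30.4% and 30.1%, 46.1% and 23.9%, and 37.9% and 19.4% of early UMIs. Both gate shares were lowest in WT, and their ranges did not overlap between Y665F and the other genotypes. With doublets kept, the neutrophil gate of Y665F held 219 and 176 barcodes (1.19% and 0.941%). The neutrophil share of WT replicate 2 was 0.115% in that setting, above the 0.0824% of Y665H replicate 2. With the same minimum of 1179 UMIs in all marrow libraries the progenitor share of Y665F replicate 2 (2.87%) lay below that of Y665H replicate 1 (3.65%), and with a minimum of 500 genes likewise (3.22%). The neutrophil share of WT replicate 2 then lay above both Y665H libraries (0.0757% against 0.0543% and 0.053%, and 0.0646% against 0.0594% and 0.0428%). With 1 UMI of Ms4a3 in place of 2, progenitor shares were 5.94% and 6.24% (WT), 8.07% and 7.62% (Y665H), and 12.4% and 13.7% (Y665F). The genotypes did not overlap in that setting. For a trend in the order Y665H, WT, Y665F, the Jonckheere-Terpstra statistic had an exact permutation p = 0.578 for each share (two-sided, adjusted 0.578 over the 2 shares, 90 arrangements, smallest possible p 0.0222). The order measured without those minimums was WT, Y665H, Y665F, and no test was made in an order chosen from the data.

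Within the bone marrow neutrophil gate, summed late levels were 106206 and 102405 CPM (WT), 207848 and 94974 CPM (Y665H) and 121228 and 47157 CPM (Y665F). The genotypes overlapped in this sum, which Camp and Ngp dominate. Camp was at 35189 and 39205 CPM (WT), 58329 and 26821 CPM (Y665H) and 64130 and 33588 CPM (Y665F). Ngp was lower in both Y665F libraries (42826 and 8137 CPM) than in WT (65899 and 57481 CPM) or Y665H (136810 and 62667 CPM). Mmp9 was at 698 and 317 CPM in Y665F, and its 0 to 4 UMIs in each of the other 4 libraries were too few to compare (upper 95% limits of 370 to 2360 CPM). Lcn2 (8044 and 2722 CPM) was above WT (1919 and 2240 CPM) but not above Y665H (6430 and 4205 CPM). With 2 to 15 barcodes per library in WT and Y665H, edgeR could test only 317 genes there, 8 of them among the 10, and called none in any contrast (0.0%; 9 to 18 genes had an unadjusted p under 0.05, and DESeq2 called none with 6 to 14 such genes). The immature and mature parts tested separately (248 and 66 genes) also gave no call with either tool (0.0%; 1 to 12 genes under 0.05 in edgeR and 0 to 8 in DESeq2). With the replicate number, which coincides with sex, as a block, Prtn3 was called lower in Y665H than in WT (-2.67, adjusted p = 0.0232) and Prtn3 and Mpo higher in Y665F than in Y665H (1.87 and 2.75, adjusted p = 0.0246 and 0.0213) in the neutrophil gate, where that fit called 0.946% and 6.31% of the 317 genes. Prtn3 had 1 and 30 UMIs there in WT and 7 and 3 in Y665H, and Mpo 1 and 2 in Y665H.

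In Y665F marrow neutrophils, Camp, Ltf, Lcn2 and Ngp were lower and Mmp8 and Mmp9 higher in mature than in immature barcodes of both libraries, as a description without a test. Camp was at 93545 and 57471 CPM in immature and 28490 and 9436 CPM in mature barcodes of the 2 libraries. Mmp9 ran the other way, with 149 and 122 CPM in immature and 1372 and 515 CPM in mature barcodes. Mmp8 also was lower in immature (153 and 66.4 CPM) than in mature barcodes (1367 and 403 CPM). Ltf was at 6001 and 3144 CPM in immature and 3420 and 1164 CPM in mature barcodes. Lcn2, whose product binds iron-carrying siderophores, was at 9701 and 3952 CPM in immature and 6045 and 1478 CPM in mature barcodes. Ngp was at 57101 and 12630 CPM in immature and 25587 and 3593 CPM in mature barcodes. The immature and mature lists used none of these genes, but they split the same barcodes, so that no test across stages was made. Fcnb, Chil3 and Cd177 of the immature list are themselves among the other specific and gelatinase granule genes listed below. The split by stage, here and in the spleen, is therefore not independent of the late genes, and their direction across stages is not read as support.

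Elane was detected in a like share of neutrophil-gated and B gate barcodes of Y665F marrow. After each barcode was thinned to 500 UMIs, Elane was detected in 23.2% and 21.3% of neutrophil-gated barcodes of the Y665F libraries and in 24.8% and 17.6% of their B gate, whose cells do not make elastase. The shares in the B gate were 18.8% and 10.6% in WT and 23.9% and 15.5% in Y665H, and the exact binomial interval of the first Y665F neutrophil share, 16.7% to 30.7%, held its B gate share. Erythroid-gate shares of the Y665F libraries were lower, at 10.6% and 16.5%, the first of them below that interval. Each set was thinned in a single random draw. Separate draws for immature and mature barcodes gave 17.7% and 17.0% in the first Y665F library and 15.0% and 24.5% in the second. The interval does not cover the spread between draws. Without thinning the Y665F shares were 55.6% and 47.2% in the neutrophil gate and 48.4% and 53.2% in the B gate, at median depths of 2203 and 1749 UMIs against 1093 and 1808 UMIs. Barcodes with early and late UMIs together, 60 of 151 and 43 of 89 in the Y665F neutrophil gate after thinning (128 and 78 before it), are for that reason not read as cells making both sets. Summed early levels were 2470 and 1603 CPM in this gate and 1557 and 1838 CPM in the B gate of the Y665F libraries, with 4938 and 1297 CPM in dividing immature barcodes, so that the first library was above its B gate and the second was not. Both were above the erythroid gates of these libraries (635 and 1339 CPM), so that the comparison depends on the reference gate. In WT and Y665H the neutrophil gate lay below the B gate in 3 of 4 libraries, and in WT replicate 2 it held 2771 CPM against 534 CPM, with 45 of its 47 early UMIs in 2 dividing barcodes. Camp behaved differently, being detected in 95.2% and 100% of immature and 68.2% and 46.9% of mature barcodes of Y665F against 4.35% and 2.84% in the B gate (unthinned 96.8% and 100%, 72.7% and 59.2%, and 8.05% and 11.4%).

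Early granule genes were concentrated in the progenitor gate, and Elane was lower there in Y665F. Elane was at 8669 and 11328 CPM (WT), 12828 and 8561 CPM (Y665H) and 6440 and 3902 CPM (Y665F), so that both Y665F libraries lay below the other 4. The log2 difference from WT was -1.03 (SE 0.25, adjusted p = 0.0075 in edgeR over 8270 genes). Prtn3 was at 7353 and 5931 CPM (WT), 7990 and 4692 CPM (Y665H) and 5008 and 2725 CPM (Y665F), a difference of -0.84 (SE 0.26, adjusted p = 0.0309) that was under 2-fold and had overlapping libraries. Mpo was at 3990 and 1994 CPM (WT), 2621 and 1553 CPM (Y665H) and 2304 and 1902 CPM (Y665F) (-0.55, SE 0.27, adjusted p = 0.152). Ctsg, at 530 to 1348 CPM, did not separate the genotypes (-0.28, SE 0.27, adjusted p = 0.508). Elane was also lower than in Y665H (-1.20, SE 0.25, adjusted p = 0.00147), as was Prtn3 by less than 2-fold (-0.86, SE 0.26, adjusted p = 0.0176).

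In this gate 7.1% of genes were called lower and 5.34% higher between Y665F and WT (587 and 442 genes, or 450 and 478 scaled to library totals alone, where Elane was at -0.95 and under 2-fold), and no gene was called between Y665H and WT (0.0%; 254 genes had an unadjusted p under 0.05, and 68 in DESeq2, which also called none). Against Y665H, 8.38% were called lower and 9.04% higher (693 and 748 genes, or 436 and 1048 with library totals). The Elane call was lost without WT replicate 2 (-0.78, adjusted p = 0.103) and without Y665F replicate 2 (-0.63, adjusted p = 0.164), and fell just under 2-fold with no filter on low counts (-0.99) and without Y665H replicate 1 (-0.996). Against Y665H it was lost without Y665F replicate 2 (-0.77, adjusted p = 0.0679) and was under 2-fold without Y665H replicate 1 (-0.89). The difference from WT stayed negative in all 18 settings tried. Thinned to 500 UMIs, Elane was detected in 69.1% and 74.9% of WT progenitor-gate barcodes, 86.0% and 67.2% in Y665H, and 59.0% and 56.0% in Y665F, above the B gate. Without thinning the shares were 82.1% to 95.2%. After thinning, barcodes with early but no late UMIs made up 80.0% to 94.5% of this gate in the 6 libraries and barcodes with both at most 3.21%. Before it, barcodes with both made up 9.09% and 2.92% in WT, 12.2% and 4.98% in Y665H, and 31.7% and 17.1% in Y665F.

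Late UMIs in the progenitor gate were few. Camp had 0 and 0 UMIs in WT, 6 and 1 in Y665H, and 53 and 56 in Y665F, and Ngp 0 and 0, 12 and 6, and 53 and 25. Both were called higher in Y665F than in WT (adjusted p = 0.000518 and 0.00122), and DESeq2 gave no adjusted p for either. With no UMI in WT, both passed the count filter only with the Y665F libraries, so that these calls are not read as support. The Y665F levels of Camp in this gate, 16.1 and 29.4 CPM, were below those in the B gate of the same libraries, 63.4 and 57.6 CPM, and so were those of Ngp (16.1 and 13.1 CPM against 79.9 and 24.5 CPM). The part of free RNA in both calls was not tested. Lcn2 was at 40.9 and 11.6 CPM in Y665F and 11.3 and 8.22 CPM in WT (1.47, SE 0.59, adjusted p = 0.0852), above its B gate levels of 12.1 and 6.13 CPM in Y665F. Against Y665H, Lcn2 (1.57, SE 0.50, adjusted p = 0.0212) and Camp (2.75, SE 0.53, adjusted p = 0.00069) were called higher and Ngp was not (0.82, adjusted p = 0.153). DESeq2 did not call Lcn2 (adjusted p = 0.109) and gave no adjusted p for Camp. With 6 and 1 UMIs in Y665H, Camp was kept by the count filter only with the Y665F libraries. Its call against Y665H is therefore not read as support either. The Lcn2 call was lost without Y665H replicate 2 (adjusted p = 0.124), and the Camp call without Y665F replicate 2 (adjusted p = 0.0754).

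**Figure D3:**
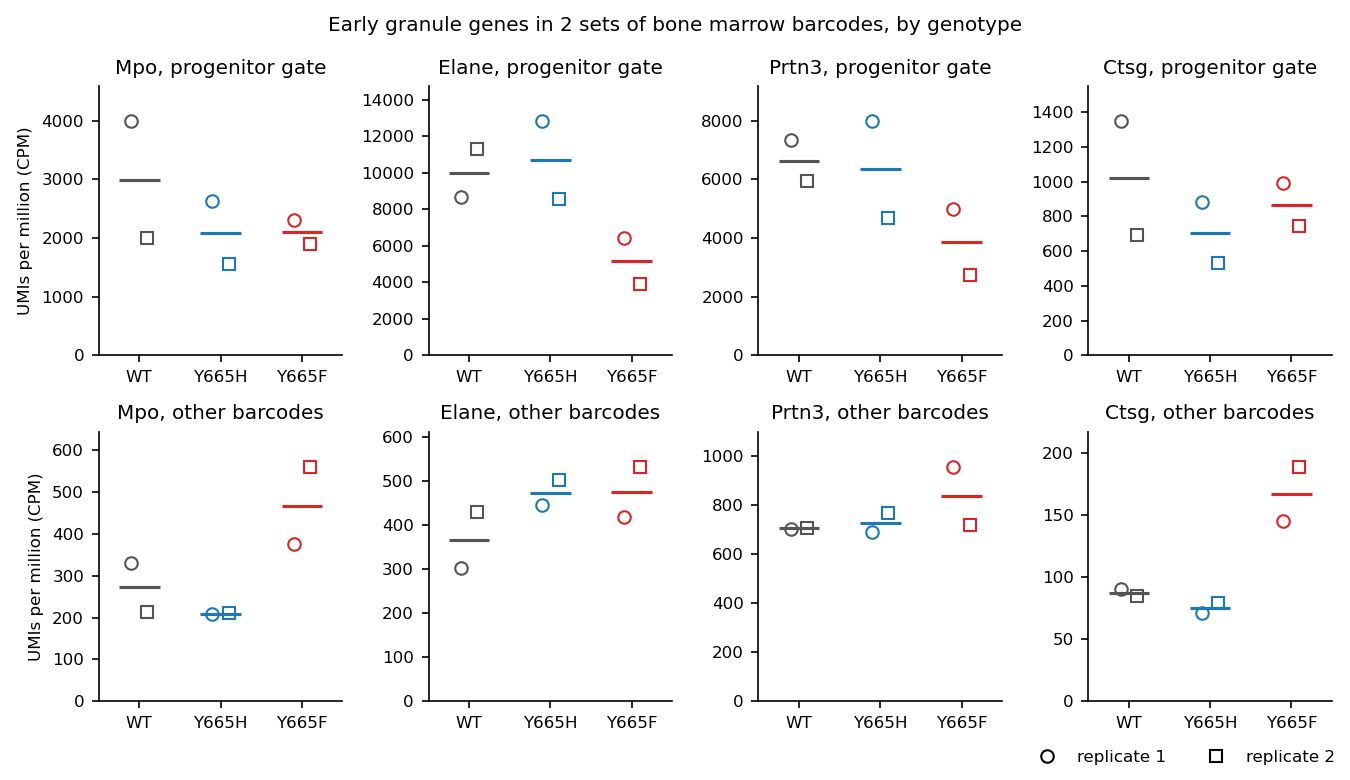
Levels of the 4 early genes in the progenitor gate (top) and in other barcodes (bottom) of the bone marrow, in CPM, by genotype. Circles are replicate 1, squares replicate 2 and bars the mean of 2 libraries. Elane in the progenitor gate is lowest in the Y665F libraries, at 6440 and 3902 CPM, and their other barcodes hold 418 and 531 CPM.

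In other barcodes, the 4 early genes showed no call. Mpo was at 330 and 214 CPM (WT), 208 and 210 CPM (Y665H) and 375 and 560 CPM (Y665F) (log2 difference from WT 0.63, SE 0.26, adjusted p = 0.0756). Ctsg was at 90.4 and 84.6, 71.3 and 79.1, and 145 and 189 CPM in that order, and its difference of 0.76 (SE 0.23, adjusted p = 0.0197) was under 2-fold. Elane ran from 302 to 531 CPM and Prtn3 from 691 to 956 CPM with overlapping genotypes. Monocyte-gate barcodes had higher early sums than the stem, erythroid, megakaryocyte, dendritic and B gates, at 6799 and 7093 CPM (WT), 8732 and 7476 CPM (Y665H) and 6437 and 5130 CPM (Y665F). The B gate stood at 1216 and 534, 1487 and 926, and 1557 and 1838 CPM, beside 1894 and 2000 CPM in the other barcodes of Y665F.

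Late genes in other barcodes were called higher in Y665F for Ltf (log2 difference 3.99, SE 0.47), Lcn2 (3.60, SE 0.44), Camp (4.10, SE 0.41), Ngp (2.71, SE 0.43) and Mmp9 (adjusted p = 0.0107), against 8.03% of genes called higher and 8.64% lower (1091 and 1174 genes, or 1521 and 785 with library totals). The 5 were also called against Y665H, where 13.8% of genes were higher and 12.4% lower (1870 and 1680 genes, or 3764 and 705 with library totals), although Ngp missed the threshold in DESeq2 (1.65, adjusted p = 0.067). No gene was called between Y665H and WT by edgeR (0.0%; 748 genes had an unadjusted p under 0.05) or by DESeq2 (711 genes). The Mmp9 call rests on 1 UMI in WT and 41 in Y665F, and its adjusted p was 0.0639 without WT replicate 1 and 0.0863 in DESeq2. Ltf was at 0.198 and 0.298 CPM in WT and 0.519 and 0.233 CPM in Y665H. Mmp9 and Ltf passed the count filter only with the Y665F libraries, so that their calls in both comparisons are not read as support. Levels of the 5 late genes were low. Camp was at 1.92 and 1.91 CPM in WT and 34.0 and 40.7 CPM in Y665F. Summed late levels in Y665F lay between 42.4 and 168 CPM in the monocyte, erythroid, stem, megakaryocyte, B and unassigned gates. Within replicate 1 they ran from 51.7 CPM in the erythroid gate to 168 CPM in the B gate, and within replicate 2 from 42.4 CPM (monocyte) to 96.8 CPM (B). In WT the same gates held 0 to 19.6 CPM. The part of free RNA in the differences outside the neutrophil gate was not tested.

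**Figure D4:**
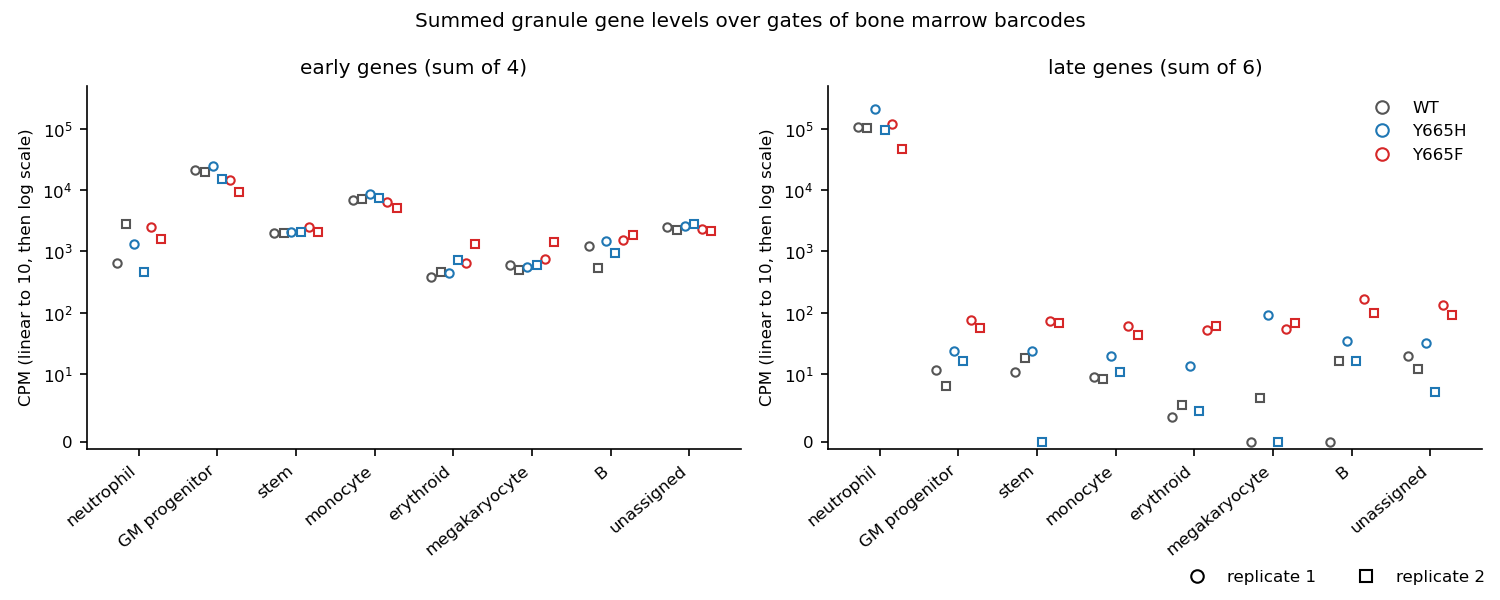
Summed early (left) and late (right) granule gene levels over 8 gates of bone marrow barcodes, in CPM on an axis that is linear to 10 and logarithmic above it. WT is grey, Y665H blue and Y665F red, with circles for replicate 1 and squares for replicate 2. Late levels are between 47157 and 207848 CPM in the neutrophil gate and at most 168 CPM in the others, whereas early levels are highest in the progenitor gate.

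Lists of related genes placed the 10 genes among their neighbours in function. Of 18 other specific and gelatinase granule genes, 14 were tested in whole bone marrow libraries and 11 were higher in Y665F than in WT (8.09% of all genes were). The largest fitted changes were those of Lrg1, a leucine-rich glycoprotein with no UMI in either WT library, Cd177, a neutrophil surface glycoprotein (log2 difference 4.95, adjusted p = 0.00052), Chil3, a chitinase-like protein (4.37, adjusted p = 0.000169), and Fcnb, ficolin B (4.16, adjusted p = 0.00351). The median over the tested list was 2.22, against 0.03 over all genes. The count filter keeps a gene that only the Y665F libraries hold, and such a gene can only be called higher. The 11 of 14 are therefore a description and not support. Of 12 other azurophil genes 11 were tested, and 2 were higher: Lyz2, lysozyme (1.41, adjusted p = 0.000772), and Cd63, a granule membrane protein (1.02, adjusted p = 0.0199). Their median was 0.29.

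Of 12 inhibitors and receptors of granule proteins, 9 were tested and 4 were higher in Y665F: Fpr2, a formyl peptide receptor (3.69), Itgam, an integrin chain (1.38), Slc22a17, a lipocalin 2 receptor (1.25), and Lrp1, a lactoferrin receptor (1.11), with adjusted p-values of 0.00397 to 0.033. Itgam and Fpr2 also stand in the specific and gelatinase list. Of 15 granulopoiesis transcription factors 4 were higher, namely Cebpa (1.57), Gfi1 (1.40), Cebpe (1.27) and Runx1 (1.27), with adjusted p-values of 0.000418 to 0.0101. Of 7 growth factor receptors 3 were higher: Csf2rb (2.11) and Csf2rb2 (1.51), which are chains shared by or specific to IL-3 family receptors, and Csf3r, the G-CSF receptor (1.19), with adjusted p-values of 9.58e-05 to 0.00662. No gene of the 5 lists was lower in Y665F than in WT, and none was called between Y665H and WT. Of all genes tested, 8.09% were called higher and 8.44% lower in Y665F than in WT. The limit of the count filter given above holds for these lists too, so that their counts are a description.

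In the progenitor gate, where 7.1% of all genes were called lower and 5.34% higher in Y665F than in WT, list genes were called in both directions. Of 11 azurophil genes tested, 3 were lower and none higher, among them Cst7, cystatin F (-1.47, adjusted p = 0.000591), and Serpinb1a, an inhibitor of neutrophil proteases (-1.05, adjusted p = 0.00919). Among 7 specific and gelatinase genes tested, Ifitm6 (-1.79, adjusted p = 0.0331) and Hp, haptoglobin (-1.47, adjusted p = 0.00383), were lower. Among 14 transcription factors Runx1 (1.45) and Stat3 (1.03) were higher and Cebpd (-1.01) lower. Among 6 receptors Csf2rb was higher (1.40) and the alpha chains Il3ra (-1.51) and Csf2ra (-1.04) were lower. Tfrc, the transferrin receptor, was higher (1.25) among 3 inhibitors and receptors tested, Serpinb1a being the one lower. The list medians were -0.45 for azurophil, -0.49 for specific and gelatinase, and 0.38 for transcription factor genes, against 0.03 over all genes.

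In the spleen, with 1 library per genotype and no test, the neutrophil gate held 77 of 6489 barcodes in WT (1.19%), 553 of 7504 in Y665H (7.37%) and 258 of 4826 in Y665F (5.35%). All 77 in WT were mature, whereas 44 were immature and 509 mature in Y665H, and 133 immature and 125 mature in Y665F. The doublet filter decided the WT stages: without it 6 immature and 87 mature WT barcodes were gated, against 44 and 564 in Y665H and 140 and 139 in Y665F. The 6 immature WT barcodes carried T and B cell marker UMIs at 174 CPM, near the 143 CPM of the mature WT barcodes that were kept and below the 2404 CPM of the 10 mature WT barcodes that were removed. The spleen levels are therefore given by stage, with the WT immature level from those 6 barcodes named as such. Intervals cover counting error only.

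Early granule RNA was found in immature neutrophils of Y665F spleen, with 7920 UMIs, against 18 UMIs in those of Y665H. Among immature barcodes, Elane was at 1506 CPM in Y665F (3004 UMIs) and had 0 UMIs in Y665H, at least 304-fold higher in Y665F with a floor of 3 UMIs. Mpo was at 883 CPM against 0 UMIs (at least 178-fold), and Ctsg at 265 CPM against 0 UMIs (at least 53.5-fold). Prtn3 was at 1317 CPM against 29.7 CPM, a ratio of 44.4 (95% interval 28.0 to 75.0). The 6 WT immature barcodes removed by the doublet filter had no early UMI in 63305 UMIs. The T gate of Y665F held 4.38 CPM of the 4 genes together. Elane was detected in 9.02% of the 133 Y665F barcodes after thinning and in 19.5% before it, and early UMIs lay beside late ones in 16 of the 133 after thinning and in 43 before it. Of the 44 Y665H immature barcodes, none had an early UMI after thinning and 7 had any before it.

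Early UMIs lay mostly in dividing barcodes. Split by 3 or more UMIs of cell cycle genes, the 65 dividing immature barcodes of Y665F held 7866 early UMIs (6297 CPM) and the 68 others 54 (72.4 CPM). The dividing barcodes were also deeper, at a median of 19256 against 11164 UMIs (16952 against 11972 UMIs in Y665H), and the cut on cycle UMIs was not thinned. Late levels in the same barcodes were 93949 and 123797 CPM. In Y665H the 13 dividing immature barcodes held 17 early UMIs and the other 31 held 1, so that dividing barcodes also differed between the mutants. Mature barcodes had 2 early UMIs in WT, 5 in Y665H and 4 in Y665F. The progenitor gate had 3 barcodes in Y665H (0.04%) and 17 in Y665F against 0 of 6489 in WT, whose interval reaches 0.0568%, and with 1 UMI of Ms4a3 it had 9, 29 and 1. With 2 or more UMIs it held 73.7% of the early UMIs of the Y665H library and 37.3% of those of Y665F.

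Immature neutrophils of the mutants held late granule RNA at levels within 1.5-fold of each other. Camp was at 42446 CPM in Y665H and 37869 CPM in Y665F (ratio of Y665F to Y665H 0.892, 95% interval 0.880 to 0.905), and at 37580 CPM in the 6 WT barcodes. Ngp was at 48923, 36403 and 37691 CPM in the same order, Ltf at 15016, 13242 and 12953 CPM, and Lcn2 at 18067, 16693 and 14249 CPM. Among these 4 genes, the ratio of Y665F to Y665H was 0.744 to 0.924. Mmp8 was at 325 CPM in Y665H, 398 CPM in Y665F and 869 CPM in the 6 WT barcodes, and Mmp9 at 711, 499 and 1216 CPM. Over the whole neutrophil gate, where stages are mixed, 9 of 10 genes were over 2-fold higher in Y665F than in WT (23.5% of genes higher, 24.7% lower) and 4 of 7 in Y665H (10.7% higher, 9.92% lower). The summed late level of that gate was 3037 CPM in WT with the doublet filter and 21780 CPM without it, so that no whole-gate fold is given and these counts depend on the filter. Without it Ngp was at 7092 (WT), 13494 (Y665H) and 30169 CPM (Y665F) in that gate, under 2-fold between Y665H and WT.

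Mature neutrophils differed more. Camp had 0 UMIs in the 77 mature WT barcodes, and was at 2891 CPM in Y665H and 12115 CPM in Y665F. Ltf likewise had 0 UMIs there, and reached 1725 CPM (Y665H) and 9438 CPM (Y665F), a ratio of 5.47 between the mutants (95% interval 5.25 to 5.71). Against the floor of 3 UMIs, Camp was at least 215-fold higher than WT in Y665H and at least 901-fold higher in Y665F, and Ltf at least 128-fold and at least 702-fold. Ngp had 3 UMIs in WT (13.4 CPM) and was at 4315 and 19136 CPM in the mutants. Without the doublet filter the mature WT barcodes still had 0 UMIs of Camp and of Ltf.

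Lcn2 was transcribed in mature WT neutrophils too, at 856 CPM, and at 3903 CPM in Y665H and 10671 CPM in Y665F, ratios to WT of 4.56 (95% interval 3.95 to 5.30) and 12.5 (10.8 to 14.5). Mmp8 was at 578, 1211 and 3690 CPM, ratios of 2.09 (1.75 to 2.52) and 6.39 (5.35 to 7.68). Among the late genes Mmp9 differed least, at 1590, 1657 and 2399 CPM, ratios of 1.04 (0.933 to 1.17) and 1.51 (1.35 to 1.70). The gelatinase gene was thus the late gene with the smallest difference between genotypes in mature barcodes, and it was lower in immature barcodes (711 and 499 CPM in the mutants). The early genes had too few UMIs in mature barcodes to be ranked. In mature barcodes 5 of the 6 late genes were over 2-fold higher in each mutant, while 8.33% of 4048 genes were in Y665F and 6.24% of 5671 genes in Y665H, and 21.0% and 8.82% were over 2-fold lower.

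Stage markers also differed within the mature gate, Il1b, Cxcr2 and Csf3r mostly in Y665F and Retnlg and Ly6g in both mutants. Il1b was at 5434 (WT), 5180 (Y665H) and 1625 CPM (Y665F), Cxcr2 at 2464, 2630 and 1460 CPM, and Csf3r at 2773, 2349 and 941 CPM. Retnlg and Ly6g were highest in Y665F, at 18776 CPM (against 7754 and 11799 CPM) and 847 CPM (against 85.1 and 245 CPM). Of these markers, Il1b, Cxcr2, Csf3r and Retnlg are on the mature list that sets the gate. A less advanced mix within the mature gate of Y665F and more late granule RNA per cell cannot be told apart here. Per 500 thinned UMIs, Camp was detected in 40.8% of mature Y665F barcodes, 5.70% of Y665H and 0 of 77 in WT (upper limit 3.90%), with 1.49%, 0.934% and 0.0241% in the T gate. Without thinning the mature shares were 54.4%, 14.5% and 0, at median depths of 4170, 3137 and 2891 UMIs, and the T gate shares 20.8%, 11.8% and 0.604% at 7395, 5916 and 6115 UMIs. Mmp9 was detected in 60.0%, 52.7% and 50.6% of mature barcodes in the same order (unthinned 96.8%, 95.1% and 98.7%).

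**Figure D5:**
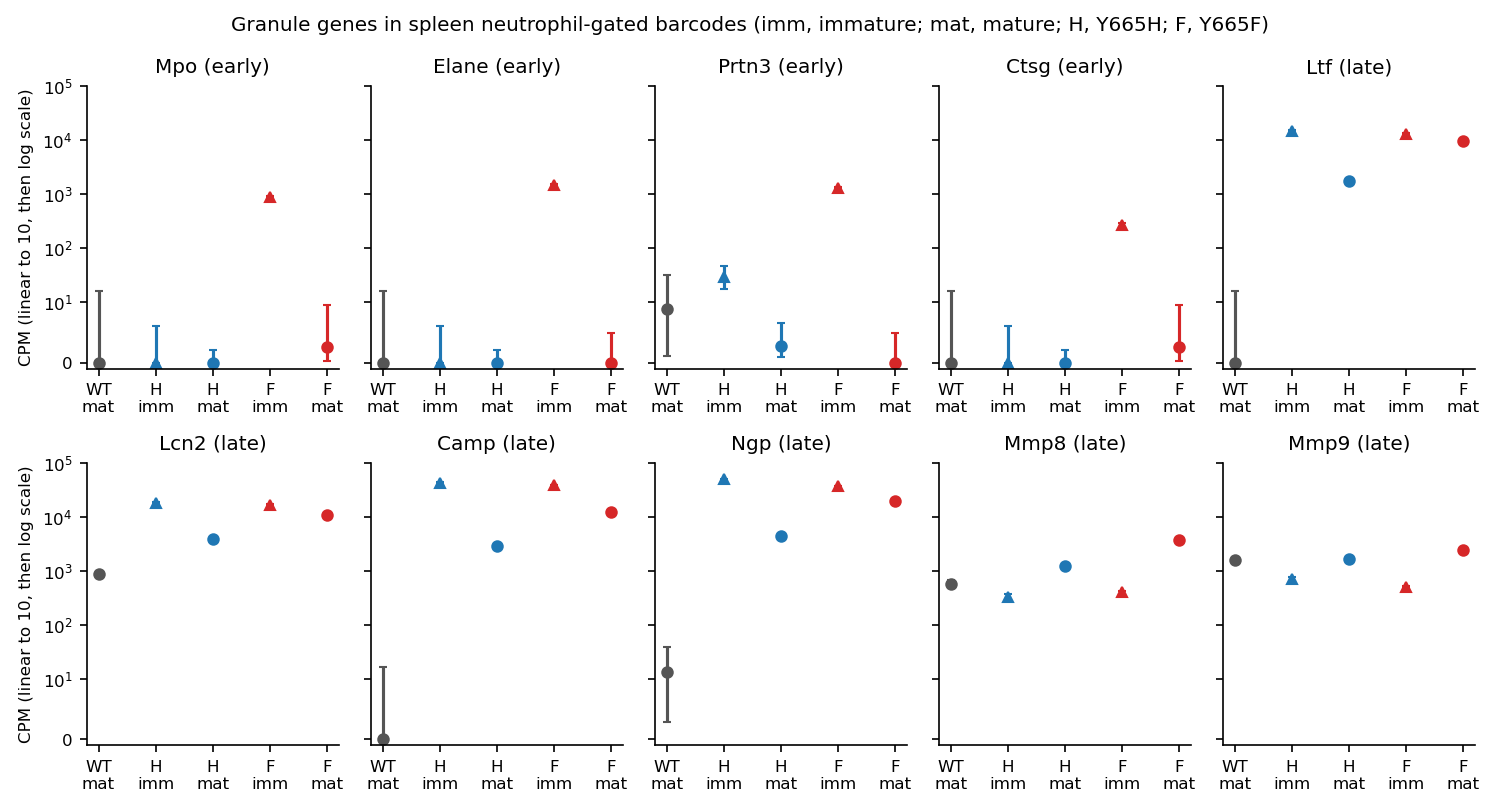
Levels of the 10 granule genes in immature (imm) and mature (mat) neutrophil-gated barcodes of the spleen, in CPM on an axis that is linear to 10 and logarithmic above it, with 1 library per genotype and 95% Poisson intervals. The 6 immature WT barcodes set aside as doublets are not plotted. Early genes stand out in immature Y665F barcodes only, at 265 to 1506 CPM, and Ltf and Camp have 0 UMIs in mature WT barcodes.

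The shares of Camp and Ltf among late UMIs in lymphocyte gates of Y665F were near those of its neutrophils, while other genes and gates departed from them. In Y665F, Camp made up 33.5% of late UMIs in the neutrophil gate, 33.9% in the T gate and 35.9% in the B gate, and Ltf 13.3%, 13.4% and 13%. In WT the shares did not match. With the doublet filter its neutrophil gate had 0 UMIs of Camp and of Ltf, while its T gate had 25 and 9 among 116 late UMIs. Mmp9 was 3.25% of late UMIs in the Y665H neutrophil gate and 7.73% in its T gate. Mmp8 made up 63.2% of the 375 late UMIs in the Y665H monocyte gate, against 2.26% in its neutrophil gate, and Lcn2 57.7% of the 142 in the Y665F monocyte gate and 67.3% of the 52 in its progenitor gate, against 16.3% in its neutrophil gate. Late levels in the T gate were 4.41 (WT), 74.1 (Y665H) and 89.1 CPM (Y665F), and in the B gate 4.54, 80.1 and 112 CPM. Lymphocytes do not make granule proteins, and the part of free RNA in these levels was not tested. All 10 genes (Y665H) and 9 of 10 (Y665F) were over 2-fold higher outside the gate than in WT, where 4.14% and 3.04% of genes were (1.22% and 4.96% lower). Most early UMIs outside the gate, 544 of 715 in Y665H and 5204 of 6042 in Y665F, lay in the progenitor gate. In whole spleen libraries all 10 were over 2-fold higher in each mutant, against 6.21% of genes in Y665H and 5.36% in Y665F (1.34% and 5.27% lower).

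The genes whose levels were most like the granule genes were found by Pearson correlation of log2(CPM + 1) over 51 sums of bone marrow barcodes (library by gate, sharing libraries and therefore not independent) among 7661 genes. The summed early genes were most like Prss57 (0.914), a serine protease of azurophil granules, Anxa3 (0.911), Gstm1 (0.827), Fcgr2b (0.818) and Adssl1 (0.806). The summed late genes were most like S100a8 (0.905) and S100a9 (0.888), which define the gate, followed by Retnlg (0.839), Chil3 (0.833) and Cd177 (0.789). Only sums of 50 or more barcodes were used, so that the neutrophil gate entered from the Y665F libraries alone (151 and 89 barcodes). The high late values in this ranking thus come from Y665F only.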

How the data were processed

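Single-cell libraries were loaded on the 10x Genomics Chromium system. The methods name the 5′ kit and the labels the 3′ kit. The authors aligned reads to GRCm38/mm10 with Cell Ranger (version 6.0.0 in the matrix headers, 5.0 in the submitters' processing notes, which also name Seurat 4.0) and deposited raw UMI counts per gene and barcode. The 14 lymph node libraries were not used. The 10 genes and all lists were chosen with earlier results of these data known.

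A barcode was kept if it held 200 or more genes and no more than 10% of its UMIs were mitochondrial. Doublets, scored with simulated doublets in 30 components of 2000 variable genes, were removed at 0.8% per 1000 barcodes. UMIs were summed per library and gate, and a gate of another cell type needed at least 3 UMIs of its markers. Sums were tested with edgeR 4.0.16 (glmQLFit, TMM, filterByExpr, 3 genotypes in 1 model) in R 4.3.3 with limma 3.58.1, called at an adjusted p under 0.05 over all genes tested and an absolute log2 fold change over 1. By Xist the 2 marrow libraries of a genotype came from different mice, 1 female and 1 male, so that p-values measure a spread that includes sex. Self-tests on simulated counts recovered 90% (whole library, 13687 genes) and 73% (progenitor gate, 8270 genes) of changes of 1.5 on the log2 scale. They used the same fixed dispersion for every gene and changed only genes with higher counts. The recovery therefore does not apply to genes that vary between replicates as much as the late genes. Alternatives used DESeq2 1.42.0, other scalings and filters, a replicate block, other gates and left-out libraries. Spleen values carry exact Poisson or conditional binomial 95% intervals, and shares exact binomial ones, all for counting error only. A gene at 0 UMIs was set to a floor of 3. Every member was named, and from each list the called genes, at most 4 by size of change. A called gene of the azurophil list is not reported here. Sums, doublet scores and figures were made in Python 3.11.15 with scikit-learn 1.9.0, matplotlib 3.10.9, scipy 1.17.1, numpy 2.4.6 and pandas 2.3.3.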

Additional observations from a re-analysis of the deposited data

Results flagged for a closer look

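The 4 early genes changed differently between Y665F and WT in the progenitor gate and in other barcodes of the bone marrow. The difference between the 2 changes was tested in edgeR over 12 sums with the library as a block and 3 residual degrees of freedom, a test chosen after the data were seen. The change in the progenitor gate was lower by 1.33 on the log2 scale for Elane (value -1.33, SE 0.16, adjusted p = 3.1e-08), with -1.18 for Mpo (SE 0.16, adjusted p = 8.2e-07), -1.03 for Prtn3 (SE 0.14, adjusted p = 1.6e-06) and -1.05 for Ctsg (SE 0.19, adjusted p = 0.0002). Of 12552 genes, 0.287% (36) were called lower and 0.255% (32) higher, and all 4 early genes were among the 36. The Ctsg call was lost without Y665F replicate 2 (-0.65, adjusted p = 0.15). For Y665H no gene was called by edgeR (0.0%; 527 genes had an unadjusted p under 0.05; DESeq2 was not run on this difference), and the 4 adjusted p-values were 0.987. In Y665F the B gate held early sums of 1557 and 1838 CPM against 1216 and 534 CPM in WT, and its part in the difference was not tested.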

How the results depend on the processing

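The late gene calls in whole libraries and in other barcodes rest on 2 libraries a genotype, and the neutrophil gate of WT and Y665H on 2 to 15 barcodes a library. Replicate numbers coincided with sex by Xist, but same-numbered libraries did not deviate together throughout, with correlations of 0.237, -0.088 and 0.191 in whole libraries, so that the number was kept as an alternative. With the replicate block, the neutrophil gate gave 1 of the 10 genes called between Y665H and WT and 2 between Y665F and Y665H, and the immature gate 1 and 1, where none was called before (0.946% and 6.31% of all 317 genes, and 0.403% and 2.02% of 248), and Ngp was called between Y665F and Y665H in whole libraries (26.4% of all genes). It changed no other call of the 10 genes. With no filter on low counts, 2 of the 10 were called between Y665H and WT in whole libraries and 1 in other barcodes (0.246% and 0.208% of all genes); leaving out 1 library gave 0 to 2 in whole libraries. In the progenitor gate, 3 genes were called in each Y665F comparison, against 1 in DESeq2 and 5 with 1 UMI of Ms4a3, and 1 to 3 against Y665H without 1 library. All genes called there numbered 1029 between Y665F and WT, against 546 in DESeq2, 424 without WT replicate 2 and 342 without Y665F replicate 2, and 1441 between Y665F and Y665H, against 727 in DESeq2, 597 without Y665H replicate 1 and 629 without Y665F replicate 2. Without Y665H replicate 1, 2198 genes in whole libraries and 2252 in other barcodes were called between Y665F and Y665H, against 3524 and 3550. The cause was not tested.

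Leaving out 1 library, the Y665F to WT log2 difference ran from -0.32 to 0.54 (Elane) and -0.34 to 0.36 (Prtn3) in whole libraries, turning negative without WT replicate 1 and without Y665F replicate 1, from -0.68 to 0.18 for Ctsg in the progenitor gate, and from -0.23 to 0.64 (Elane), -0.22 to 0.28 (Prtn3) and -0.0058 to 0.84 (Mmp8) in other barcodes. The Y665H difference between gates ran from -0.62 to 0.20 (Mpo, 0.032 with 1 UMI of Ms4a3), -0.79 to 0.027 (Elane), -0.72 to 0.27 (Prtn3) and -0.83 to 0.16 (Ctsg).

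For the log2 early to late ratio, the Y665F mean minus the WT mean in other barcodes was -2.17 with a 5% neutrophil gate against -2.99, in the progenitor gate -4.57 with doublets kept against -3.58, and in the neutrophil gate 2.10 with doublets kept and 3.25 with a 5% gate against 1.04, with -0.040 to 2.13 without 1 library. For Y665H the neutrophil gate value of -1.20 reversed to 0.40 at 1% and 1.21 at 5%, and ran from -2.29 to -0.12 without 1 library; in other barcodes it ran from -1.30 to 0.50.

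In the spleen neutrophil gate, summed late levels with doublets kept were 21780 CPM (WT), 37753 CPM (Y665H) and 87770 CPM (Y665F), and the early level of Y665F was 2650 CPM. At 1% and 5% gates the late levels were 42823 and 46122 CPM (Y665H) and 91475 and 93060 CPM (Y665F). Outside it they were 5.81 and 7.83 CPM (WT, 1% and 5%), 93.5 CPM (Y665H, 5%) and 104 CPM (Y665H, doublets kept, early 8.25 CPM). The B gate as reference held 80.1 CPM (Y665H) and 112 CPM (Y665F). Tests within the neutrophil gate and its stages could not be run with a 500-gene or a common UMI minimum, which left a library empty. Thinning moved 327 shares of barcodes and left 213 within their interval.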
